A study of Mus musculus with 6 samples.

Results

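The genes described here are those whose probes gave no signal in soleus muscle of control mice, 38 of the 203 named genes (18.7%) on a small array directed at selected genes. Soleus is a postural muscle of the calf. The 6 samples were all of 1 group, C57Bl/6 control mice, and the labels give no age, sex, treatment or second group. They number the samples 1 to 6 without stating that these came from 6 animals, so differences between arrays may be technical in part. The titles also hold a short code, "HUR wt", which the labels do not explain.

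The deposited table held intensities on a linear scale, and every array had some values under 0. The noise bound of an array was taken as the absolute size of its most negative intensity, and a probe at or under it was counted as having no signal there. Of 223 probes, 47 (21.1%) were above the bound on none of the 6 arrays, 70 on 1 to 5 arrays and 106 on all 6. Each of the 47 was at or below 0 on at least 1 array, so that second part of the rule removed none. Among them 8 carried no gene name. A further one belonged to Fn1, whose other probe was above the bound, and was left out. Because these intensities chose the genes, their values are given as a description, with no test. No signal means only that the probe did not rise over background. In whole muscle, fewer cells of a type and less RNA per cell cannot be told apart.

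Adult skeletal muscle is built mostly of long-lived fibres that have left the cell cycle. Between them lie capillaries, fibroblasts, nerve endings and satellite cells, the stem cells that rest until the muscle is injured. Many genes of inflammation, matrix breakdown, cell division and early myogenesis are known to be turned on in injured or growing muscle. AP-1 is a transcription factor made of a Jun and a Fos protein and is a known regulator of several matrix metalloprotease genes.

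The promoters of 3 metalloproteases without signal are shown because these genes lie in 1 cluster of the mouse genome and 6 matrix proteases were without signal. In the RefSeq gene table, Mmp3, Mmp8 and Mmp12 belong to an unbroken run of 10 metalloprotease genes with no other protein-coding gene between them. Of that run 4 genes were on the array. The remaining one, Mmp10, which lies between Mmp3 and Mmp8, was above the noise bound on 1 array. Each sequence runs 5′ to 3′ on the + strand from 80 bases before to 20 bases after an annotated start (RefSeq, GRCm38.p6), with a match to the AP-1 motif TGAGTCA or to the TATA box letters TATAAA, on either strand, in capitals.
Mmp3, chr9:7445742-7445841: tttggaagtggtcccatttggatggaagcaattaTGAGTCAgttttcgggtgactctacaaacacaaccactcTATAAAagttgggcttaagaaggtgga
Mmp12, chr9:7347294-7347393: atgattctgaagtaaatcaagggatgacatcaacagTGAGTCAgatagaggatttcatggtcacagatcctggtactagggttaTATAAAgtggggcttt
Mmp8, chr9:7558349-7558448: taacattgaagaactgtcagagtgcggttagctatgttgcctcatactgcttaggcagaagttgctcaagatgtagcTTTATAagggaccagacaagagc

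In Mmp3 the AP-1 match began 46 bases before the start and lay 32 bases from the TATA box letters. In Mmp12, which has 2 annotated windows, the match shown began 44 bases before the start and lay 41 bases from those letters. The other window of Mmp12 held neither of these matches. The stretch of Mmp8 held only the TATA box letters, on the other strand. Relative to the annotated start, the first of the TATA box letters was at -7 in Mmp3, at 4 in Mmp12 and at -3 in Mmp8. In Mmp12 these letters thus lay after the start. Over all promoter windows in the table, 300 bases each, TGAGTCA was found on either strand in 5.2% and TATAAA in 13.6%. A promoter was given for 29 of the 38 genes (76.3%), which is under the 80% needed to describe a property of the whole set, so no share over the set is given. A match describes the letters and is not evidence of binding.

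Few genes of muscle energy supply and contraction were in the set, which held 4 genes of cytokines and their receptors and 6 matrix protease genes. None of the 33 listed genes of glucose, lipid and mitochondrial metabolism on the array lacked signal, though Pdha2, a subunit of pyruvate dehydrogenase, did and was not in the list. Of the 33, 25 were above the bound on all 6 arrays, among them Slc2a1, Slc2a2 and Slc2a4. Of the 16 myogenic and contractile genes 1 lacked signal, the myogenic factor Myf5. In contrast, 4 of 10 genes of cytokines and their receptors (40%) and 6 of 16 matrix protease genes (37.5%) were above the bound on no array. Among all named genes the share was 18.7%. In the first of these lists the genes with signal were all receptors: Il6ra, Csf2ra, Csf2rb, Epor, Il6st and Csf2rb2. Of 5 transcription factors outside the muscle lineage 2 lacked signal. The shares were 27.3% of 11 genes of the FGF, PDGF and EGF families, 23.1% of 13 cell cycle and DNA genes, 18.8% of 16 hormone, IGF and TGF-beta genes, 16.1% of 31 vascular genes and 11.8% of 17 matrix and adhesion genes. A further 9 of the 35 genes in no list had no signal. These shares depend on how the lists were written. With Edn2, Edn3, Ephb3 and Thbs3, relatives of listed genes, the vascular share was 9 of 35 genes (25.7%), and with Pdha2 the metabolic share was 1 of 34 (2.94%). Only genes without signal were added here, so both shares could only rise. Unlisted genes with signal, such as Ang, Ang2, Cox5b and Cox8a, were not moved. The lists of apoptosis genes and of signalling kinases had 0 genes on the array. These shares were not tested, since the same intensities chose the genes.

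**Figure D1:**
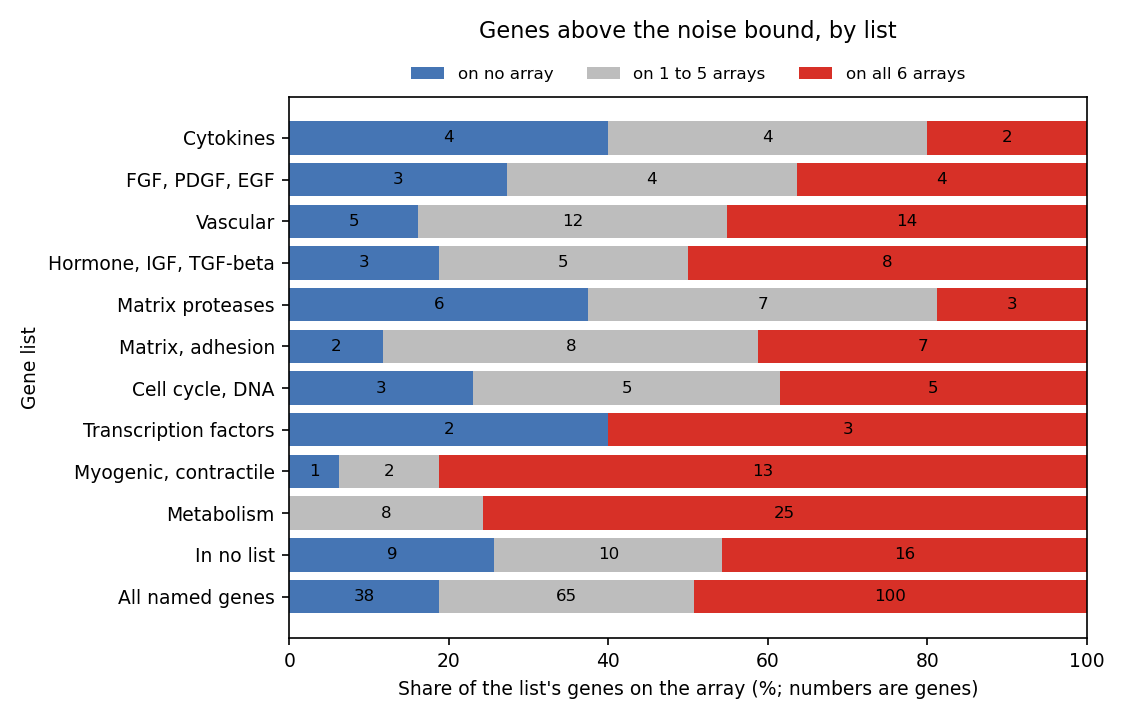
Share of the genes of each list (horizontal axis, %) that were above the noise bound on no array, on 1 to 5 arrays or on all 6 arrays, with the number of genes in each segment. No gene of the metabolic list and 1 myogenic or contractile gene was above the bound on no array, against 4 of 10 genes of cytokines and their receptors and 6 of 16 matrix protease genes.

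Intensities of the 38 genes lay on both sides of 0. Of their 228 values 155 were below 0, 6 were 0 and 67 were above 0. At or below 0 on all 6 arrays were 10 of the 38 genes. Of all 223 probes 12 (5.38%) were. Every such probe meets the rule, so a higher share among the probes without signal was fixed in advance. A further 9 genes were at or below 0 on 5 arrays, and 3 genes, Nos3, Angpt1 and Igfbp1, on 1 array only. In percent of the noise bound, the median over the 228 values was -23.5 and the highest was 95.7. On all arrays 27 of the 38 genes stayed at or under 50% of the bound.

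**Figure D2:**
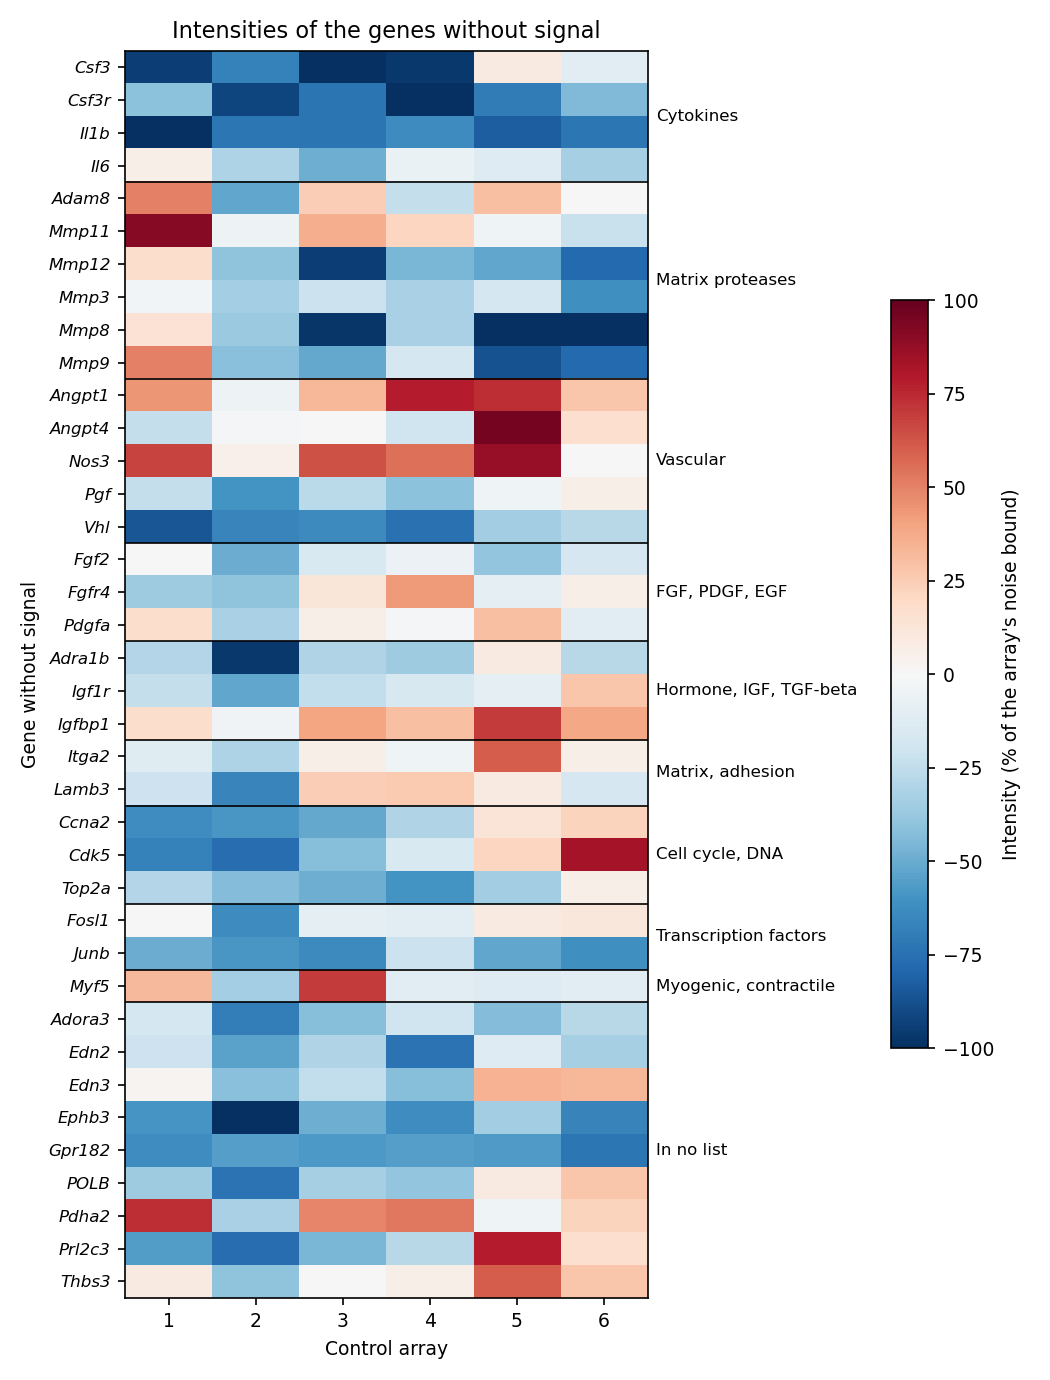
Intensity of each of the 38 genes (rows, grouped by list) on control arrays 1 to 6 (columns), as a percentage of the noise bound of that array, with blue below 0 and red above 0. Il1b, Csf3r, Vhl and Junb were below 0 on all 6 arrays, and in control 2 only Nos3 was above 0.

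Genes of inflammatory signalling in the set were the cytokines Il1b, Csf3 and Il6 and the receptor Csf3r. Il1b, interleukin 1 beta, a cytokine that starts inflammation, had intensities of -0.0034, -0.0045, -0.0024, -0.0055, -0.0019 and -0.0013 in controls 1 to 6. Its highest value was -63.2% of the bound, so it was well below 0 everywhere, and in control 1 it was the probe that set the bound. Csf3, the granulocyte colony-stimulating factor, had -0.0032, -0.0042, -0.0033, -0.0084, 0.0002 and -0.0002. Csf3r, the receptor for that factor on neutrophils and their precursors, had -0.0014, -0.0057, -0.0024, -0.0087, -0.0016 and -0.0008. The ligand and its receptor were thus both without signal, and they set the bounds of controls 3 and 4. Il6, interleukin 6, a cytokine that contracting muscle is known to release, ran from -48.5% to 5.88% of the bound and was above 0 only in control 1. The probes for its receptor chains differed in their calls, with Il6ra above the bound on 4 arrays and the shared signal chain Il6st on all 6. The array held 0 of the 15 markers written down for immune and blood cells, so the share of such cells in the samples was not measured.

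Matrix proteases in the set were 5 metalloproteases of the MMP family and Adam8. Metalloproteases cut collagens and other matrix proteins and are held in check by the TIMP inhibitors. Mmp3, stromelysin 1, had intensities of -0.0001, -0.0021, -0.0007, -0.0028, -0.0004 and -0.0011 in controls 1 to 6 and was below 0 on every array. Mmp8, the collagenase of neutrophils, had 0.0005, -0.0023, -0.0032, -0.0028, -0.0023 and -0.0018. It was above 0 in control 1 alone and set the bound of controls 5 and 6. Mmp9, a gelatinase, had 0.0017, -0.0026, -0.0017, -0.0015, -0.0020 and -0.0014, and the macrophage elastase Mmp12 had 0.0006, -0.0025, -0.0031, -0.0040, -0.0012 and -0.0014. Both followed the same form, above 0 in control 1 and below it elsewhere. Mmp11, stromelysin 3, had 0.0031, -0.0003, 0.0012, 0.0019, -0.0001 and -0.0004, and in control 1 reached 91.2% of the bound. Adam8, a membrane-bound metalloprotease of leukocytes, ran from -51.6% to 50% of the bound, also with its highest value in control 1. Of the other metalloproteases on the array, Mmp14 was above the bound on 5 arrays, Mmp2 on 2 and Mmp10 on 1, while the inhibitors Timp1, Timp2 and Timp3 were above it on all 6. With genes above the bound on 1 array and at or below 0 on another also admitted, the protease group grew from 6 to 9 genes, through Mmp10, the plasminogen activator Plat and plasminogen, Plg.

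The high values of these proteases in control 1 went with the numbers in the probe identifiers. All 7 genes whose probe number is 20 to 22, which are Pdha2, Mmp9, Adam8, Mmp11, Mmp12, Mmp8 and Myf5, were above 0 in control 1, with a median of 50% of the bound. Of the 31 genes with other numbers 7 were above 0 there, with a median of -23.5%. Mmp3, whose probe number is 5, was below 0 in control 1. Both unnamed probes without signal numbered 20 to 22 were above 0 there as well. In controls 2, 4, 5 and 6 the 7 genes had medians of -37.1%, -17.2%, -13% and -22.2%, and in control 3 of 24.2%. The labels do not say that the numbers stand for positions on the array, and the part of position in these values was not tested.

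**Figure D3:**
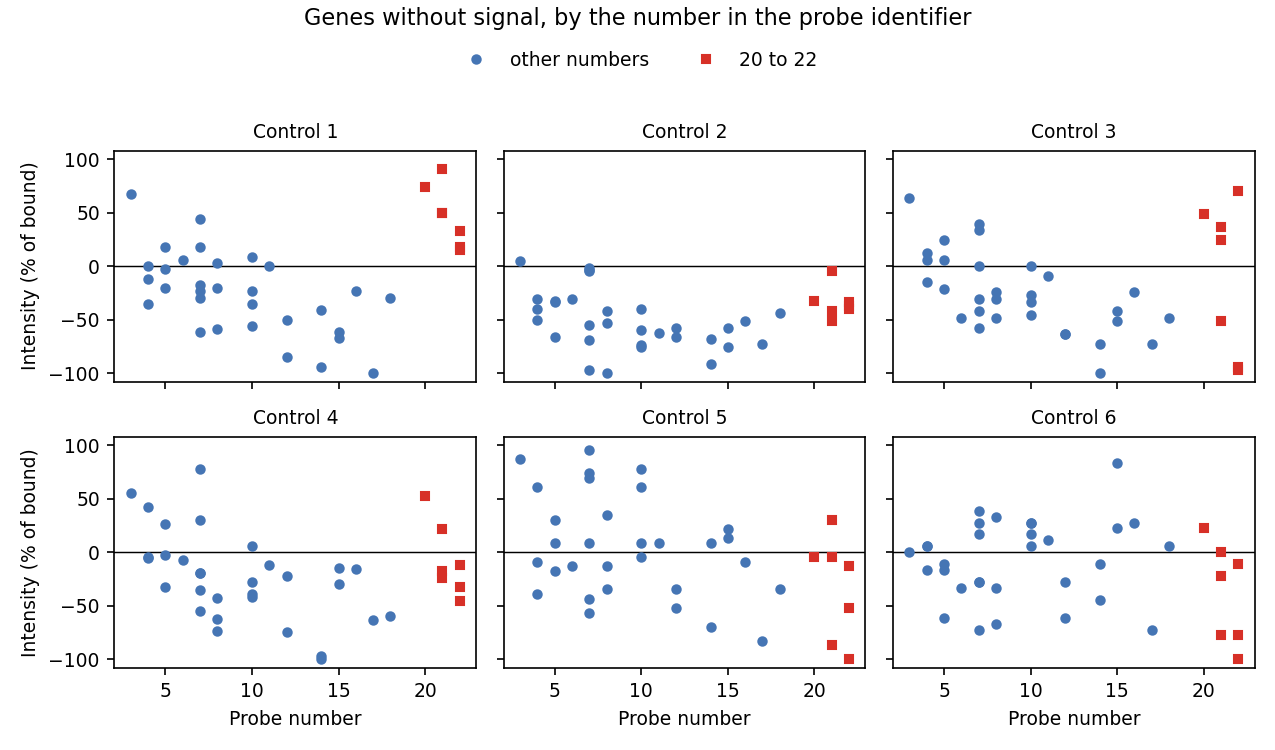
Intensity of the 38 genes as a percentage of the noise bound (vertical axis) against the number in the probe identifier (horizontal axis), 1 panel per control array. In control 1 the 7 genes with probe numbers 20 to 22 (red squares) all lie above 0, while in control 2 all 7 lie below 0.

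The vascular ligands Pgf, Angpt1 and Angpt4 had no signal although probes for their receptors did. Pgf, placental growth factor, binds the receptor Flt1. It ran from -59.7% to 5.56% of the bound with a median of -25.4%, and was above 0 only in control 6. Flt1 was above the bound on all 6 arrays, as were the related ligands Vegfa and Vegfb. Angpt1 and Angpt4 are ligands of the endothelial receptor Tie2, which Tek encodes. Angpt1 had intensities of 0.0015, -0.0003, 0.0011, 0.0068, 0.0017 and 0.0005 in controls 1 to 6, above 0 on 5 arrays and up to 78.2% of the bound. Angpt4 had -0.0008, -0.0001, 0.0000, -0.0017, 0.0022 and 0.0003, with only control 5 near the bound. Tek was above the bound on 5 arrays and Angpt2, the third ligand on the array, on all 6. The endothelial markers Pecam1, Cdh5, Kdr, Flt1 and Cd34 were above it on all 6 arrays, so transcripts of endothelial cells were detected in these samples.

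Nos3 and Vhl were the other vascular genes without signal. Nos3, the nitric oxide synthase of endothelium, had intensities of 0.0023, 0.0003, 0.0021, 0.0048, 0.0020 and 0.0000, never below 0 and with a median of 59.4% of the bound, the highest median of the 38 genes. With a bound 0.5 times as large it left the set. Vhl, the part of a ubiquitin ligase that marks hypoxia-inducible factors for breakdown, had -0.0029, -0.0041, -0.0021, -0.0065, -0.0008 and -0.0005 and was below 0 on every array. Of its partners in the hypoxia pathway, Hif1a was above the bound on 3 arrays and Arnt on all 6. The endothelins Edn2 and Edn3, peptides that act on vessel tone and on cells of the neural crest, were in no list. Edn2 was below 0 on every array, with a median of -31.8% of the bound. Edn3 ran from -42.5% to 34.8%, and the third endothelin, Edn1, was above the bound on 2 arrays.

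In the growth factor systems, too, genes with and without signal stood side by side. Fgf2, basic fibroblast growth factor, was 0.0000 in control 1 and below 0 on the other arrays, with a median of -15.9% of the bound. Fgfr4, a receptor of that family, ran from -40.3% to 42.5%. The related Fgfr1 and Fgfr2 were above the bound on all 6 arrays and Fgfr3 on 1. Pdgfa, a ligand of the PDGF receptors, ran from -32.3% to 30.4% with a median of 1.88%, while Pdgfb and Pdgfra were above the bound on 5 arrays and Pdgfrb on 6. In the IGF system, Igf1r and Igfbp1 were without signal. Igf1r, the receptor through which Igf1 and Igf2 act on muscle growth, had intensities of -0.0008, -0.0032, -0.0008, -0.0014, -0.0002 and 0.0005 in controls 1 to 6, above 0 in control 6 only. Igf1, Igf2 and the other IGF receptor on the array, Igf2r, were above the bound on all 6 arrays. Igfbp1, an IGF-binding protein known mainly from liver, was above 0 on 5 arrays and reached 69.6% of the bound. Igfbp4, Igfbp5 and Igfbp6 were above the bound on all 6 arrays.

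Further receptors in the set were Adra1b, Adora3, Gpr182 and Ephb3. Adra1b, an alpha-1 adrenergic receptor, ran from -96.8% to 8.7% of the bound and was above 0 in control 5 alone. Adora3, an adenosine receptor, was below 0 on every array with a median of -35.1%. The receptor Gpr182 had intensities of -0.0021, -0.0034, -0.0019, -0.0048, -0.0013 and -0.0013 in controls 1 to 6. On the scale of each bound these lay between -72.2% and -54.8%, the narrowest range of the 38 genes. Ephb3, a receptor tyrosine kinase for ephrins, was also below 0 on all 6 arrays and set the bound of control 2, whereas the ligands Efnb1 and Efnb2 were above the bound on all 6.

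Genes of dividing cells were without signal in part. Ccna2, the cyclin of S phase and mitosis, had intensities of -0.0021, -0.0036, -0.0017, -0.0026, 0.0003 and 0.0004 in controls 1 to 6. Top2a, the topoisomerase of replicating chromosomes, had -0.0010, -0.0027, -0.0016, -0.0052, -0.0008 and 0.0001. Both were below 0 in controls 1 to 4 and had their highest value relative to the bound in control 6. Cdk5, a kinase named for its likeness to the cell cycle kinases and known from neurons, reached 83.3% of the bound in control 6. The probe annotated as POLB, a DNA repair polymerase, carries a human gene identifier in the platform annotation. It ran from -74.2% to 27.8%. Other genes of the cell cycle and DNA list were above the bound on all 6 arrays, among them Ccna1, Cdk4 and Cdkn1a. Pcna, the sliding clamp of replication, was above it on 5. Of other DNA polymerase genes, Pole2 was above the bound on 6 arrays, Pold1 on 5 and Pola1 on 4. The absence of signal was therefore not shared by all measured genes of DNA synthesis.

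The AP-1 subunits were split between probes with clear signal and probes with none. Junb had intensities of -0.0017, -0.0036, -0.0021, -0.0019, -0.0012 and -0.0011 in controls 1 to 6, all below 0. Fosl1 had 0.0000, -0.0039, -0.0003, -0.0010, 0.0002 and 0.0002, close to 0 except in control 2. Jun, with 0.0503, 0.0366, 0.0720, 0.1496, 0.0772 and 0.0812, was above the bound on all 6 arrays, as were Jund and Fosl2. Junb is in the set for its values under the bound, and Jun was set beside it after values were seen. Levels of different probes also carry the affinity of each probe and are not ranked.

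Among genes of muscle and matrix, Myf5 was the single myogenic regulator without signal. It marks muscle precursors and satellite cells and had intensities of 0.0011, -0.0021, 0.0023, -0.0010, -0.0003 and -0.0002 in controls 1 to 6. Control 3 reached 69.7% of the bound. Of the other myogenic factors, Myod1 was above the bound on 4 arrays, and Myog and Myf6 on 6. Of the 10 fibre markers written down, 7 were on the array: Myh7, Myh2, Myh1, Myh4, Mb, Ttn and Des. These were above the bound on all 6 arrays, so transcripts of muscle fibres were detected. They include myosins of slow and of fast fibres and do not tell soleus from other muscles. Lamb3, a laminin chain of epithelial basement membranes, ran from -66.1% to 26.4% of the bound, and Itga2, an integrin chain that binds collagen, from -30.6% to 60.9%. The laminin chains Lamb2 and Lamc1 and the integrin chains Itgb1 and Itgb5 were above the bound on all 6 arrays. Thbs3, a thrombospondin, ran from -40.3% to 60.9%.

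A pair of genes known from other organs completed the set. Pdha2, the testis form of the pyruvate dehydrogenase subunit, had intensities of 0.0025, -0.0020, 0.0016, 0.0046, -0.0001 and 0.0004 in controls 1 to 6. Its somatic counterpart Pdha1, with 0.3254, 0.2558, 0.3364, 0.9467, 0.1587 and 0.1860, was above the bound everywhere. Prl2c3, a prolactin-related hormone known from placenta, ran from -75.8% to 78.3% of the bound. Not every gene known from other organs lacked signal. The probes for Slc2a2, a glucose transporter known from liver and pancreas, and for Ldhc, a testis lactate dehydrogenase, were above the bound on 6 and 5 arrays. They are examples and not a full list of such genes. Of the 9 markers written down for liver and kidney, 2 were on the array, Slc2a2 and Agt. Agt was above the bound on 4 arrays. Cross-hybridisation was not checked, because the sequences of the probes were not used.

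The Fn1 probes show what a probe without signal can miss. Both carry the accession X93167 in the platform annotation. One had intensities of 0.0011, -0.0020, 0.0011, 0.0056, 0.0014 and 0.0001 in controls 1 to 6, above the bound on 0 arrays. The other had 0.1295, 0.0675, 0.1035, 0.2909, 0.1226 and 0.0581, above it on all 6. For this gene a probe without signal thus stood beside a clear signal. Each of the 38 genes was measured by a single probe.

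The noise bound differed between arrays and decided which genes lay at the edge. For controls 1 to 6 it was 0.0034, 0.0062, 0.0033, 0.0087, 0.0023 and 0.0018. As a share of the median intensity of the array this was 45.3%, 117%, 36.7%, 31.4%, 26.1% and 24%, so in control 2 the bound lay above the median probe. In control 2, 37 of the 38 genes were below 0, and 20 had their lowest value relative to the bound there. In controls 5 and 6, 17 and 16 of the 38 were above 0. Just inside the rule were Angpt4, at 95.7% of the bound in control 5, Mmp11, at 91.2% in control 1, and Nos3, at 87% in control 5. Just outside it were Mmp10, at 143% in control 5, Plat, at 153% in control 1, and Plg, at 174% in control 5. Hprt, a gene often used as a reference, was also above the bound on 1 array only, at 226% in control 1.

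Whether the set carries over to an array that did not choose it was read by leaving out each array in turn. The rule was applied to the probes on 5 arrays, named or not, and the chosen probes were then looked up on the sixth. Above the bound were 2 of 49 chosen probes in control 1, 0 of 43 in control 2, 0 of 47 in control 3, 0 of 47 in control 4, 3 of 50 in control 5 and 1 of 47 in control 6. Of all 223 probes the shares above the bound on controls 1 to 6 were 64.1%, 48.9%, 68.6%, 69.5%, 73.1% and 74.4%. Summed over the 6 arrays, 6 of 283 readings of chosen probes (2.12%) and 883 of 1055 readings of the other probes (83.7%) were above it. At or below 0 were 67.1% of the readings of chosen probes and 3.51% of the others. The probes that rose above the bound on the array left out were Hprt and Plat in control 1, Plg, Mmp10 and an unnamed probe in control 5, and Lamb1 in control 6. The 6 choices share most of their arrays, and the bound of each array was itself set by a probe without signal, so these readings are not independent and were not tested. The other probes were those that failed the rule on the 5 arrays, so the chosen and the other probes were both picked by signal, which widens their contrast.

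**Figure D4:**
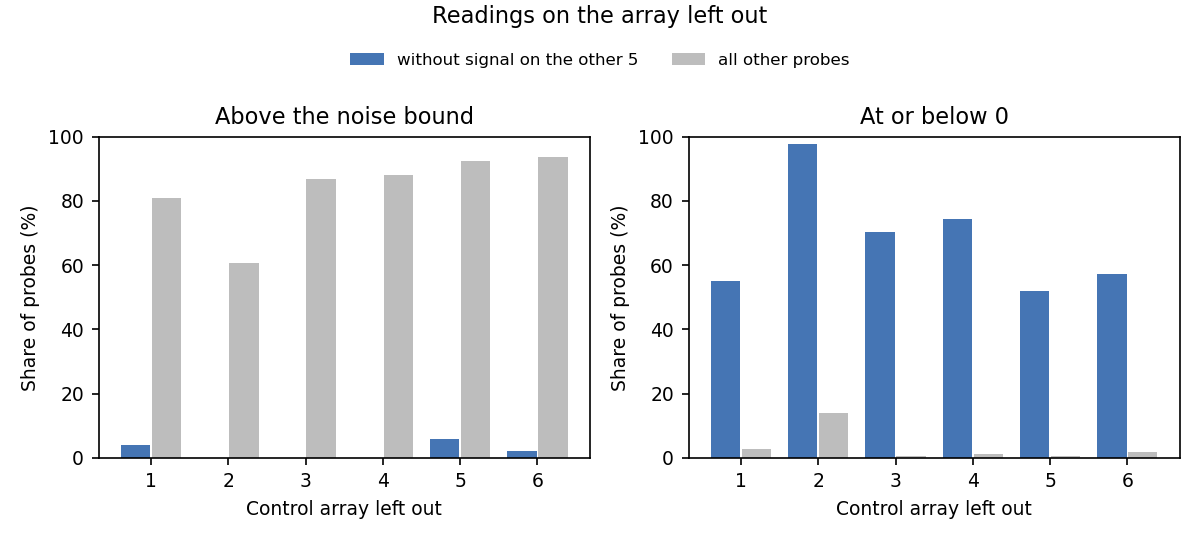
Share of probes (vertical axis, %) above the noise bound (left) and at or below 0 (right) on each control array when that array was left out of the choice, for probes without signal on the other 5 arrays (blue) and for all other probes (grey). On no array were more than 6% of the chosen probes above the bound, while 60.6% to 93.8% of the other probes, which failed the rule on the other 5, were.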

How the data were processed

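Expression arrays of soleus muscle from 6 control mice were used, each made with 3 µg of total RNA per the labels. The deposited table gives 1 intensity per probe and array on a linear scale. Scanner, background correction, scaling and genome build are unstated (not given in the sources used), and array medians differed, so intensities were set against the noise bound of their own array, which a rescaling of the array would not change. Probes were named by the platform annotation. The mouse gene table (GRCm38.p6, names and gene order only) held 37 of the 38 identifiers, and 0 symbols changed.

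Counts were made with Python 3.11.15, numpy 2.4.6 and pandas 2.3.3. The code of the rule was run on simulated data, whose probes without signal were those above the bound on no array here. This checked the code and cannot show that the rule is right. Arrays give no counts, and their number limits the precision. With 1 group, and genes chosen by these values, no p-value is given. The genes and lists were chosen with earlier results of these data known. All 38 genes are named, along with the 3 nearest on each side of the rule and relatives of the genes. These relatives, Hprt, the motifs, the other list assignment and the split by probe number were chosen after values were seen. Slc2a2 and Ldhc were in lists written beforehand, but were set beside Pdha2 and Prl2c3 after values were seen. Cell type markers fixed beforehand served to check the tissue. Markers of muscle fibres had signal, but so did the 2 markers of liver and kidney on the array, Slc2a2 and Agt. The alternatives were other bounds (0.5 and 2 times, or the second most negative value), other criteria and each replicate left out in turn.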

Additional observations from a re-analysis of the deposited data

Results flagged for a closer look

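A single array stood apart for 3 of the 38 genes, where the gap between the extreme array and its nearest neighbour, as a share of the range over the 6 arrays, passed Dixon's critical value for 6 samples. Chance gives such a gap in about 1 of 20 groups, and 20 of all 223 probes (8.97%) had one, beside which 3 of 38 (7.89%) is no result about these genes. The values also chose the genes and are given as a description. Fosl1 was lowest in control 2, at -62.9% of the noise bound against -11.5% for the next array (gap 0.695 of the range). Junb was highest in control 4, at -21.8% against -50% (0.674), with all 6 values below 0. Angpt4 was highest in control 5, at 95.7% against 16.7% (0.663), and no other array brought it near the bound.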

How the results depend on the processing

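The number of genes without signal was 38. It was 27 with 0.5 times the bound, which removed Angpt1, Angpt4, Cdk5, Igfbp1, Itga2, Mmp11, Myf5, Nos3, Pdha2, Prl2c3 and Thbs3, and 49 with 2 times the bound. With the second most negative value as bound it was 36, and with genes above the bound on 1 array and at or below 0 on another admitted 43. It was 33 with values at or below 0 asked for on 3 arrays and 10 when asked for on all 6, which the stricter criterion fixes. It ranged from 36 to 40 when 1 replicate was left out: without replicate 2 Angpt1 and Igfbp1 left the set, and without replicate 6 Nos3 did. Of the genes of cytokines and their receptors all 4 remained in each of these settings except the criterion of all 6 arrays, which kept 2. Of the matrix proteases 5 to 9 were without signal in the other settings and 1 under that criterion. Of the listed metabolic genes 0 lacked signal in each setting except 2 times the bound, with 2. The number of genes at or below 0 on all arrays used was 10, and 10 to 14 with 1 replicate left out. The share of chosen probes above the bound on the array left out was 2.12%, 7.22% with 0.5 times the bound and 2.26% with the second most negative value. Promoter CpG content was not run, since under 80% of the genes had a promoter. No paired analysis was possible because the labels give 1 group. Signal over background limits the set: a transcript under the bound cannot be told from none.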
